A study of Mus musculus with 6 samples.

Results

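The genes of the mitochondrial ribosomal proteins were compared between hearts of Cfp1-cKO and wild-type (WT) mice. Members were the rows of the deposited gene table whose symbol began with Mrpl or Mrps followed by a number. They came to 79 of 26881 genes, 50 with a large subunit symbol (Mrpl) and 29 with a small subunit symbol (Mrps). Of these, 77 were protein-coding and 2, Mrpl23-ps1 and Mrpl48-ps, were annotated as processed pseudogenes. Bulk RNA-seq had been performed on 3 WT and 3 Cfp1-cKO heart samples from C57BL/6 mice at 2 weeks of age. Cfp1-cKO mice carried Myh6-Cre together with 2 floxed alleles of Cfp1 (flox/flox). For RNA-seq the paper names WT controls, and it names littermates as controls only for growth at 3 weeks of age. Whether the WT mice sequenced here carried floxed alleles or Cre is not given. The sample labels give the genotypes as CXXC1 null and wild-type, and the study's methods describe the deletion as specific to cardiomyocytes. The Myh6 promoter drives Cre in cardiomyocytes, so the other cells of the heart keep the gene. Whether each sample came from 1 heart or from a pool is not given in the sources used here. The p-values therefore describe the spread between samples, which may be technical.

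The mitochondrial ribosome translates the few proteins that the mitochondrial genome encodes, all of them subunits of the respiratory chain complexes and ATP synthase. Its 2 ribosomal RNAs are transcribed from the mitochondrial genome, whereas its proteins are encoded in the nucleus, made in the cytosol and imported. The heart relies on oxidative phosphorylation, which needs both genomes. Cfp1, the product of Cxxc1, binds unmethylated CpG dinucleotides through its zinc finger and belongs to the Setd1 complexes, which place methyl groups on lysine 4 of histone H3.

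Since the deleted factor binds CpG, promoters of members that passed the test in either of the fits described below are shown first. The RefSeq promoter table of GRCm38.p6 held 68 of the 78 members that were tested, each with a window of 300 bases around its start. Entries were not matched for Mrpl4, Mrpl13, Mrpl15, Mrpl19, Mrpl38, Mrpl54, Mrpl23-ps1, Mrps28, Mrps34 and Mrps35. The 150 bases before the start are given 5′ to 3′ for 2 members that were higher and 3 that were lower in Cfp1-cKO hearts, with each CpG in capitals.
Mrpl49 (chr19:6057756-6057905, minus strand): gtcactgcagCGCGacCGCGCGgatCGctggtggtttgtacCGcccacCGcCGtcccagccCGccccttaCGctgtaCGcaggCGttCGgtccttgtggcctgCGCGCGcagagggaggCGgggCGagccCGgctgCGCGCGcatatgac
Mrps18a (chr17:46110854-46111003, plus strand): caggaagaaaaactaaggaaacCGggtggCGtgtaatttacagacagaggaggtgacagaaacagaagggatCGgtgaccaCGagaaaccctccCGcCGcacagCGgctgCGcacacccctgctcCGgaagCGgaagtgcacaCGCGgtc
Mrpl2 (chr17:46646071-46646220, plus strand): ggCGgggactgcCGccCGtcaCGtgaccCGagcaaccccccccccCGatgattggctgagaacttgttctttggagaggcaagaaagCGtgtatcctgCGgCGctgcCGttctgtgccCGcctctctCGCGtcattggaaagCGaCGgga
Mrpl11 (chr19:4962156-4962305, plus strand): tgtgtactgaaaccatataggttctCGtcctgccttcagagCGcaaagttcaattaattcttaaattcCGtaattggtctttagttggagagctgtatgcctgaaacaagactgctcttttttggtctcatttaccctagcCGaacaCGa
Mrpl42 (chr10:95501950-95502099, minus strand): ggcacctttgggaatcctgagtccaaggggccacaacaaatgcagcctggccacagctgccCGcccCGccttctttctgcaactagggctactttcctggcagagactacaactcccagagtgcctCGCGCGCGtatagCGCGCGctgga
The Mrpl49 stretch held 23 CpG dinucleotides, that of Mrps18a 12, that of Mrpl2 15, that of Mrpl42 9 and that of Mrpl11 5. Those of the called members Mrpl51 and Mrpl18, not printed because they lie within the deposited bounds of these genes, held 10 and 12.

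Over the whole windows, member promoters held a median of 21 CpG, with a range of 7 to 39. The median was 7 over all 27025 promoters in the table and 21 over the 8185 promoters of tested genes, equal to that of members. CpG number and log2 fold change had a Spearman rho of 0.12 across the 68 members, both on the deposited values and after scaling, and all these points come from the same 6 libraries. The 36 members at or above the median CpG number had a median log2 fold change of 0.19, and the other 32 one of 0.10.

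**Figure D1:**
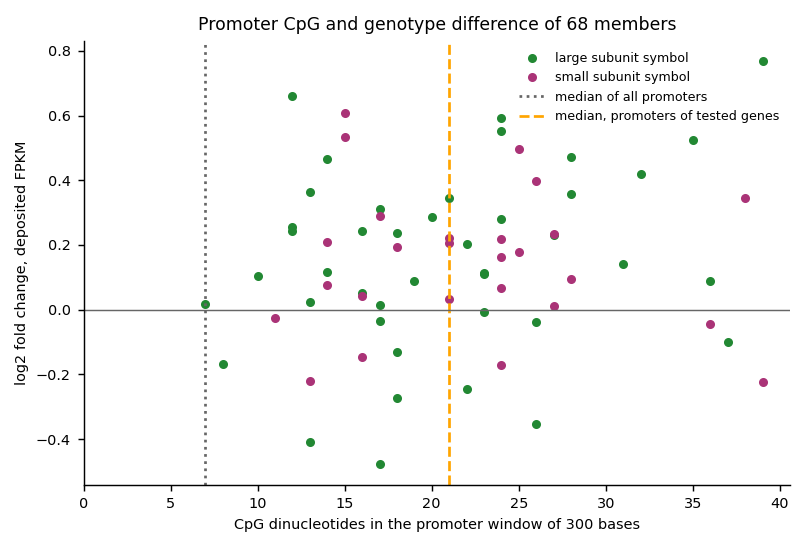
Number of CpG dinucleotides in the promoter window of 300 bases (x axis) against the log2 fold change of Cfp1-cKO over WT on deposited FPKM (y axis) for 68 members, coloured by the subunit in the symbol. Vertical lines give the medians of all promoters (7) and of promoters of tested genes (21), and members of high and low CpG number lie on both sides of 0.

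Short motifs known for factors of mitochondrial genes were searched on both strands of the windows. The motif CCGGAAG, a core of the sites of ETS factors such as Gabpa, was in 24 of 68 member promoters (35.3%), in 9.12% of all promoters and in 18.8% of those of tested genes. The motif AAGATGG, a core of YY1 sites, was in 13 (19.1%), against 6.48% of all promoters and 7.70% of those of tested genes. The palindrome GCATGC, the centre of NRF1 sites, was in 9 (13.2%), against 7.94% of all promoters and 10.4% of those of tested genes, and 8 of the 9 were large subunit genes. None of these motifs contains another, and a match describes the sequence only. The 24 members with the ETS motif had a median log2 fold change of 0.10 and the 44 without it one of 0.18 (-0.27 and -0.22 after scaling). For the YY1 motif the medians were 0.22 for 13 members with it and 0.14 for 55 without it (-0.21 and -0.26 after scaling). For the NRF1 motif they were 0.42 for 9 with it and 0.14 for 59 without it (0.00 and -0.28 after scaling).

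Expression was given by the authors as FPKM, the number of fragments per kilobase of a gene's exons, relative to the total of the library. Library totals, worked back from the steps between FPKM values, ranged from 16672652 to 22700811 fragments, and a tested member had between 68 and 4899 fragments in a library. The targeted gene, Cxxc1, read 9.66, 12.9 and 10.03 FPKM across WT libraries against 8.02, 9.94 and 8.74 FPKM across Cfp1-cKO libraries, and the genotypes overlapped. Its genotype difference on the log2 scale was -0.26 (adjusted p = 0.249, limma). After the median-of-ratios scaling described below, Cxxc1 values were 11.3, 15.7 and 10.999 across WT libraries against 7.51, 8.12 and 7.08 across Cfp1-cKO libraries. They no longer overlapped, and the difference was -0.66 (adjusted p = 0.0571, limma), which did not pass the test. All 15 cardiomyocyte markers were detected in every library, the lowest of them at 15.0 FPKM, and their summed level ranged from 21202 to 27198 FPKM in WT and from 15115 to 19576 FPKM in Cfp1-cKO hearts. Of these markers 4 were called lower, beside 1.68% of all tested genes. Of other cell types, 2 of 8 endothelial, 1 of 8 fibroblast and 2 of 4 tested immune markers were called higher on deposited FPKM, where 21.1% of all tested genes were, and 0, 0 and 1 after scaling. The summed level of erythroid markers was 59.7 to 1007 FPKM in WT and 233 to 1887 FPKM in Cfp1-cKO hearts. Lung epithelial markers stood apart. Their summed level was 0.560 to 6.89 FPKM in WT and 3373 to 5119 FPKM in Cfp1-cKO hearts, 12 of 12 were called higher, and 8 of them, among them Sftpc and Sftpb, were listed at 0 in WT replicates 1 and 3. This holds for all 3 Cfp1-cKO libraries, so no comparison below could be made without it. The part of these cell type markers in the members' values was not tested. In bulk tissue, fewer cells of a type and less RNA per cell cannot be told apart.

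Members were expressed at moderate levels. Their mean over the 6 libraries ranged from 1.76 to 71.4 FPKM with a median of 14.4, above the median of 4.84 over all 11017 tested genes. The median was 16.2 FPKM for large and 9.76 FPKM for small subunit symbols. The 5 members of highest mean were Mrps21 (71.4 FPKM), Mrpl41 (53.3), Mrps23 (52.8), Mrpl16 (46.3) and Mrpl42 (45.5), all structural proteins of their subunits. The 3 lowest tested members were Mrpl33 (1.76 FPKM), Mrpl17 (2.31) and Mrpl19 (2.94). Mrpl48-ps was not tested, as its mean did not reach 1 FPKM. It was at 3.74 FPKM in WT replicate 1, from 54 fragments, and listed at 0 in the other 5 libraries.

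Fold changes between genotypes were taken on log2(FPKM + 1), a scale that understates the changes of low genes. On the deposited FPKM, 73 of 78 members (93.6%) differed by less than 1.5-fold on that scale, against 72.3% of all tested genes. After the scaling described below these shares were 88.5% and 83.2%. On deposited FPKM, Mrpl54, Mrpl49 and Mrps18a rose in Cfp1-cKO hearts and no member fell. The test was limma on log2(FPKM + 1), where a call needed an adjusted p below 0.05 and a log2 fold change of more than 0.5 in size. The 3 of 78 members called higher (3.85%) stand beside 21.1% of all tested genes, and the 0 called lower stand beside 1.68% of them. At an unadjusted p below 0.05 there were 12 higher (15.4%) and 3 lower members (3.85%), against 40.7% and 3.09% of all tested genes. Voom on the recovered fragments also called 3 higher and 0 lower. The median log2 fold change was 0.13 over members (quartiles 0.00 and 0.29) and 0.35 over all tested genes (quartiles 0.12 and 0.59). Only 16 of 78 members lay above the median of all genes. All 3 Cfp1-cKO libraries exceeded all 3 WT libraries for 22 members (28.2%), against 46.4% of tested genes, and lay below them for 5 members, against 3.23%.

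Coordinates of members are those deposited, on GRCm38. Mrpl54, a protein of the large subunit (ENSMUSG00000034932, chromosome 10 from 81264713 to 81266934), measured 16.0, 8.68 and 15.9 FPKM across WT libraries and 23.7, 28.7 and 23.4 FPKM across Cfp1-cKO libraries. The genotypes did not overlap, although WT replicate 2 was well below the other WT libraries. The log2 fold change came to 0.90 (standard error 0.24, adjusted p = 0.0314, limma). Mrpl49, also of the large subunit (ENSMUSG00000007338, chromosome 19 from 6053630 to 6057751), measured 17.2, 10.7 and 18.3 FPKM across WT libraries and 28.1, 25.5 and 25.2 FPKM across Cfp1-cKO libraries. Again WT replicate 2 was the lowest and the genotypes were apart. The log2 fold change came to 0.77 (standard error 0.21, adjusted p = 0.0338, limma). Mrps18a (ENSMUSG00000023967, chromosome 17 from 46110986 to 46128910) has a small subunit symbol, but its protein sits in the large subunit of the assembled ribosome. Its level was 7.76, 7.36 and 7.65 FPKM in WT and 11.38, 11.004 and 11.96 FPKM in Cfp1-cKO hearts. Here the 3 libraries of a genotype lay close together, and the log2 fold change came to 0.53 (standard error 0.13, adjusted p = 0.0277, limma).

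The 3 calls were not kept in every fit with 1 library left out. Without WT replicate 1, or without any 1 of the Cfp1-cKO libraries, no member was called higher, whereas without WT replicate 3 the count was 6. Such fits have fewer libraries, and higher calls over all tested genes changed too. They went from 2325 to 619 without WT replicate 1 and to 1742, 538 and 954 without Cfp1-cKO replicates 1, 2 and 3. The log2 fold changes of the 3 members stayed above 0.5 in each of these fits. Without WT replicate 2 the 3 members were still called, with log2 fold changes of 0.63 for Mrpl54, 0.54 for Mrpl49 and 0.52 for Mrps18a. Mrps18b, with a log2 fold change of 0.50 just under the threshold (adjusted p = 0.0462, limma), and Mrpl24, with 0.66 (adjusted p = 0.0512, limma), were the nearest to a call.

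The 2 other genes that share the number of Mrps18a are its paralogs, and each of the 3 proteins occupies its own place on the ribosome. Mrps18b measured 3.82, 3.40 and 4.44 FPKM across WT libraries and 5.75, 6.40 and 5.50 FPKM across Cfp1-cKO libraries, without overlap. Mrps18c measured 5.20, 5.33 and 4.65 FPKM across WT libraries and 4.68, 4.13 and 4.33 FPKM across Cfp1-cKO libraries, where the genotypes overlapped and the log2 fold change was -0.17 (adjusted p = 0.360, limma). The 3 paralogs thus had fold changes of either sign. Of the pseudogenes, Mrpl23-ps1 showed a log2 fold change of 0.01 and its parent Mrpl23 one of -0.13. A pseudogene and its parent may share fragments, so their values are uncertain.

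At the other end of the range, Mrpl42, Mrpl11, Mrpl2, Mrpl51 and Mrpl18 had the lowest log2 fold changes on deposited FPKM, between -0.48 and -0.24, and did not pass the test there. For each of them every Cfp1-cKO library was below every WT library. Mrpl52 (-0.01), Mrpl23-ps1 (0.01) and Mrps5 (0.01) had the smallest differences, the last with 7.68, 7.43 and 7.13 FPKM in WT and 7.34, 8.07 and 7.05 FPKM in Cfp1-cKO hearts. The 95% confidence interval of the log2 fold change lay within 0.5 of 0 in size for 26 of 78 members and reached past it for the other 52.

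**Figure D2:**
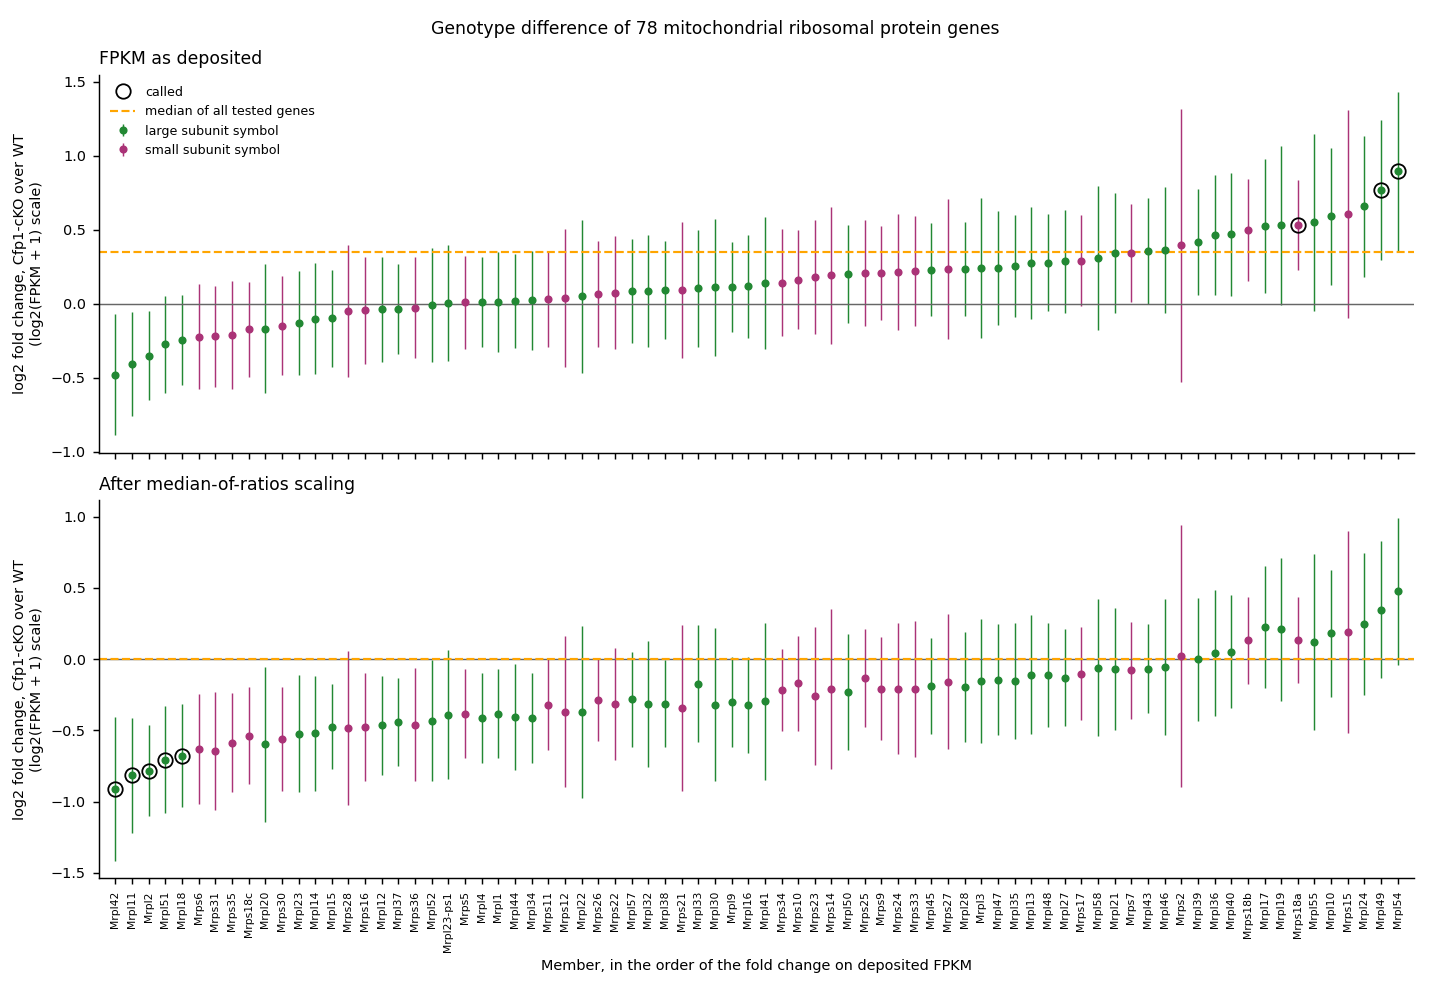
log2 fold change of Cfp1-cKO over WT with its 95% confidence interval from limma (y axis) for the 78 tested members (x axis, in the order of the deposited values), coloured by the subunit in the symbol, with called members circled and the median of all tested genes dashed. On deposited FPKM 3 members are called at the upper end and the member median (0.13) is under that of all genes (0.35). After median-of-ratios scaling 5 are called at the lower end.

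Most tested genes were higher in Cfp1-cKO libraries on the deposited scale, so values were also divided by median-of-ratios size factors, which ranged from 0.821 to 0.912 in WT and from 1.07 to 1.23 in Cfp1-cKO libraries. This brought the median of all tested genes to 0.00, a shift of 0.35 on the log2 scale. Relative to that, members were lower. Their median was -0.27 (quartiles -0.43 and -0.10), 65 of 78 were below 0, 5 fell and none rose. The 5 called lower (6.41%) stand beside 3.25% of tested genes, and the 0 called higher stand beside 3.74%. At an unadjusted p below 0.05, limma gave 26 lower (33.3%) and 0 higher members after scaling, against 11.95% and 12.7% of all tested genes. All 3 Cfp1-cKO libraries were below all 3 WT libraries for 29 members (37.2%), against 14.9% of tested genes, and above them for 2, Mrpl49 and Mrpl54, against 16.7%. The sign of the member median thus differed between the scales.

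All 5 members that fell after scaling have large subunit symbols. Mrpl2 (ENSMUSG00000002767, chromosome 17 from 46646229 to 46650139), a core protein close to the peptidyl transferase centre, measured 34.1, 33.1 and 34.4 FPKM across WT libraries and 25.7, 25.8 and 27.5 FPKM across Cfp1-cKO libraries as deposited. Both genotypes were tight, and after scaling its log2 fold change came to -0.78 (standard error 0.14, adjusted p = 0.0173, limma). Mrpl11 (ENSMUSG00000024902, chromosome 19 from 4962306 to 4966995), which belongs to the stalk base where translation factors bind, measured 14.1, 13.0 and 13.2 FPKM across WT libraries and 11.3, 10.03 and 8.40 FPKM across Cfp1-cKO libraries. The Cfp1-cKO libraries were all lower, with a log2 fold change of -0.82 after scaling (standard error 0.17, adjusted p = 0.0341, limma). Mrpl42 (ENSMUSG00000062981, chromosome 10 from 95480805 to 95501940), the most abundant of the 5, measured 58.6, 53.5 and 47.0 FPKM across WT libraries and 42.9, 41.2 and 30.1 FPKM across Cfp1-cKO libraries. Its libraries were more spread in both genotypes, and its log2 fold change after scaling came to -0.91 (standard error 0.22, adjusted p = 0.0476, limma).

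Mrpl51 (ENSMUSG00000030335, chromosome 6 from 125191801 to 125196269) measured 36.7, 30.8 and 34.7 FPKM across WT libraries and 30.03, 27.8 and 26.1 FPKM across Cfp1-cKO libraries, with a log2 fold change of -0.70 after scaling (adjusted p = 0.0428, limma). Mrpl18 (ENSMUSG00000057388, chromosome 17 from 12911349 to 12916345), a protein linked to the import of 5S rRNA into mitochondria, measured 41.4, 38.9 and 40.2 FPKM across WT libraries and 35.9, 32.9 and 32.6 FPKM across Cfp1-cKO libraries. Its log2 fold change after scaling was -0.68 (adjusted p = 0.0429, limma). Leaving out WT replicate 1, Cfp1-cKO replicate 2 or Cfp1-cKO replicate 3 left 0 of the 5 calls, leaving out WT replicate 2 left Mrpl2 alone, and leaving out Cfp1-cKO replicate 1 left Mrpl11 and Mrpl2. Without WT replicate 3, 5 members were called lower, 3 of them (Mrpl2, Mrpl11 and Mrpl42) shared with the 5 above. Such fits have fewer libraries, and lower calls over all tested genes changed too, from 358 with all libraries. They came to 75, 305 and 398 without WT replicates 1, 2 and 3. Without Cfp1-cKO replicates 1, 2 and 3 they came to 170, 60 and 217.

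**Figure D3:**
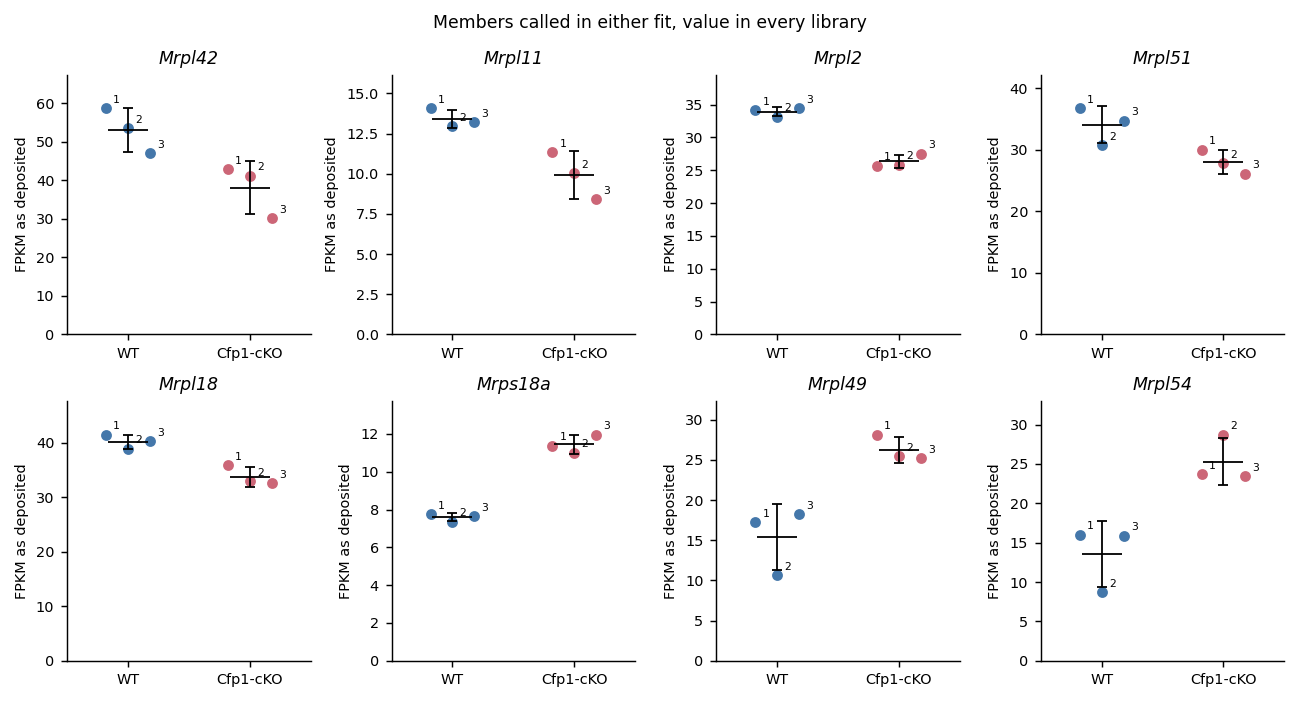
FPKM as deposited (y axis, from 0) in each library of WT and Cfp1-cKO hearts for the 8 members called in either fit, with the replicate number beside each point and bars for mean and SD (n = 3). In all 8 panels the genotypes do not overlap, and WT replicate 2 is the lowest WT point for Mrpl49 (10.7) and Mrpl54 (8.68).

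The medians of large and small subunit genes lay close together. On deposited FPKM the median log2 fold change was 0.12 for 49 large and 0.14 for 29 small subunit members, and after scaling it was -0.28 and -0.26. The summed level of large subunit members was 965, 837 and 873 FPKM in WT and 1001, 988 and 913 FPKM in Cfp1-cKO hearts. That of small subunit members was 510, 489 and 443 FPKM in WT and 550, 536 and 467 FPKM in Cfp1-cKO hearts. Both sums overlapped between genotypes as deposited. After scaling, the large subunit sums were 1131, 1019 and 957 across WT libraries and 938, 806 and 740 across Cfp1-cKO libraries, without overlap. The scaled small subunit sums were 598, 595 and 485 across WT libraries and 515, 438 and 378 across Cfp1-cKO libraries, with overlap. The ratio of the large to the small sum, which no scaling between libraries can change, was 1.86 ± 0.13 (SD, n = 3) in WT and 1.87 ± 0.07 (SD, n = 3) in Cfp1-cKO hearts, also with overlap. By structure, with Mrps18a and Mrps30 counted in the large subunit and Mrps36 and the pseudogenes left out, the medians were 0.13 for 50 large and 0.15 for 26 small subunit genes. Mrps36 was left out because its protein is known as a part of the alpha-ketoglutarate dehydrogenase complex. This split was added after seeing the data. The 3 members called higher were all in the large subunit under it, as were the 5 called lower after scaling, and no test was made of that.

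**Figure D4:**
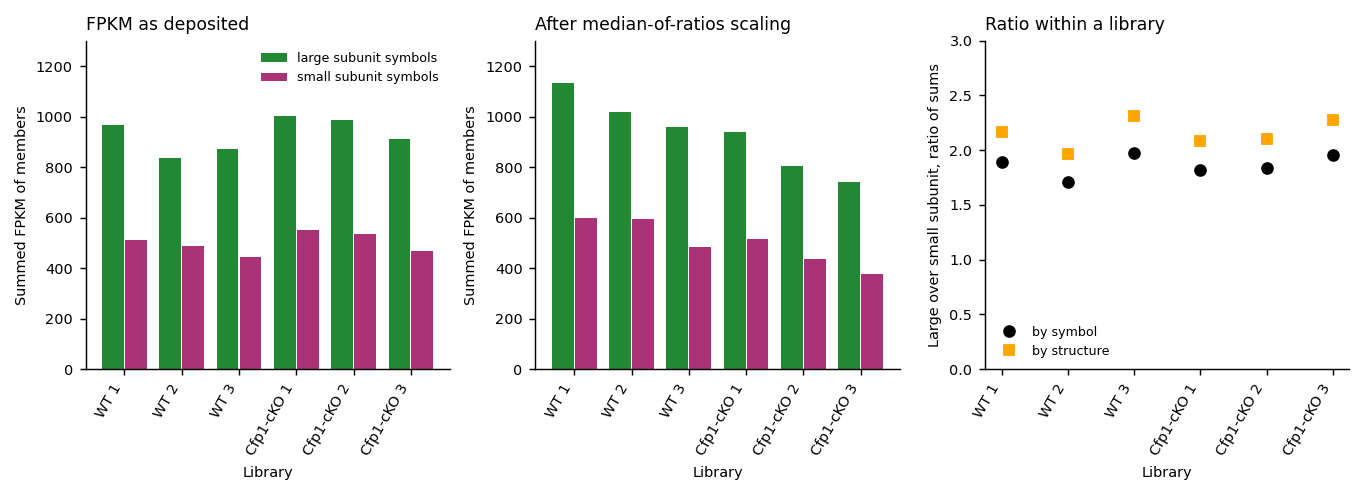
Summed FPKM of members with large and small subunit symbols (bars from 0) in each library as deposited and after median-of-ratios scaling, and the ratio of the sums within a library (right, circles by symbol, squares by structure). The ratio by symbol lies between 1.71 and 1.97 in all 6 libraries.

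Libraries of a genotype differed as well. Of 78 members, 35 had their lowest value in WT replicate 2 (44.9%, against 42.3% of all tested genes). Another count, 27 members with their highest value in Cfp1-cKO replicate 1, was not taken over all tested genes. WT replicate 1 was the lowest library for 2 members (2.56%), against 24.3% of all tested genes. Some members varied widely within WT. Mrps2, named here after its values were seen, measured 6.76, 2.09 and 10.01 FPKM across WT libraries and 6.61, 7.58 and 8.23 FPKM across Cfp1-cKO libraries. Mrps15, named in the same way, measured 17.2, 8.12 and 21.1 FPKM across WT libraries and 24.1, 24.8 and 19.0 FPKM across Cfp1-cKO libraries. The range within WT exceeded the difference of the means for both, with log2 fold changes of 0.40 (standard error 0.40) and 0.61 (standard error 0.31).

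The genes of members are spread over 17 chromosomes, with the largest numbers, 11 and 8, on chromosomes 11 and 17. In the GENCODE annotation 19 members start within 1000 bases of the start of a protein-coding gene read in the opposite direction. The start of Mrpl54 lies 26 bases from that of Apba3, whose own log2 fold change was -0.06 (adjusted p = 0.831, limma). That of Mrpl49 lies 59 bases from Fau, a cytosolic ribosomal protein gene with a log2 fold change of 0.05 (adjusted p = 0.884, limma). That of Mrpl2 lies 207 bases from Klc4, itself called higher on deposited FPKM with 0.50 (adjusted p = 0.0494, limma), opposite in sign to Mrpl2. That of Mrpl51 lies 100 bases from Ncapd2, with 0.72 (adjusted p = 0.0999, limma), also opposite in sign to its partner. After scaling, the fit in which Mrpl2 and Mrpl51 were called, Klc4 had 0.11 and Ncapd2 0.40 (adjusted p = 0.683 and 0.380, limma). Apba3 and Fau were not called where their partners were, and the difference within a pair was not tested.

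Exons of 32 members overlap those of another gene in the annotation, 27 of them on the opposite strand. The counting is not stated to use strand, so the fragments of such genes cannot be told apart. Of the called members, Mrpl18 shares 10.1% of its exon bases with Tcp1 and Mrpl49 shares 4.85% with Syvn1, both on the opposite strand, Mrpl51 shares 2.15% with Mir3098, and the other 5 share none. Mrpl24 shares 26.3% with Rrnad1 and Mrps18b 30.5% with Gm16279.

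Other genes of mitochondrial translation were taken from whole lists, which were chosen with earlier results of these data known. Of the small subunit proteins with other symbols, Dap3, Ptcd3, Chchd1 and Aurkaip1, 0 of 4 were called by limma or voom. At an unadjusted p below 0.05 (limma), 1 (25%) was higher, against 40.7% of all tested genes. The median log2 fold change of the 4 was 0.37, beside 0.35 over all tested genes, and -0.05 after scaling. Gadd45gip1 of the large subunit had 0.28 (adjusted p = 0.178, limma), and -0.03 after scaling. Of 25 tested genes of ribosome assembly and rRNA maturation, 2 rose, beside 21.1% of all tested genes, and 0 fell, with a median of 0.22 that became -0.13 after scaling. Voom called 1 of them. Nsun4, which methylates the small ribosomal RNA, measured 4.16, 3.49 and 3.66 FPKM across WT libraries and 6.54, 5.81 and 6.65 FPKM across Cfp1-cKO libraries (log2 fold change 0.62, adjusted p = 0.0227, limma). Mrm3, a methyltransferase of the large ribosomal RNA, had 0.59 (adjusted p = 0.0439, limma). Neither passed the test after scaling.

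No translation factor of 14 tested and no mitochondrial aminoacyl-tRNA synthetase of 17 was called on deposited FPKM by limma or voom. At an unadjusted p below 0.05 (limma), 0 and 1 (5.88%) were higher, against 40.7% of all tested genes. The medians were 0.37 and 0.31 (-0.01 and 0.03 after scaling). After scaling, the synthetases Fars2 and Iars2 fell, each with a log2 fold change of -0.68 (adjusted p = 0.0370 and 0.0238, limma). They were 2 of 17 (11.8%), beside 3.25% of all tested genes. Of 10 genes of mitochondrial transcription and DNA maintenance 0 were called in either limma fit or by voom, with a median of 0.11 on deposited FPKM. At an unadjusted p below 0.05 (limma) there were 0 on deposited FPKM, against 40.7% of all tested genes higher and 3.09% lower. After scaling there were 3 (30%), all lower, against 11.95% of all tested genes. Among 12 nuclear regulators of mitochondrial genes, Perm1, a muscle regulator that acts with Esrra and Ppargc1a, fell (log2 fold change -0.81, adjusted p = 0.0306, limma). It was 1 of 12 (8.33%), beside 1.68% of all tested genes. Nrf1 (0.08), Gabpa (0.14) and Yy1 (0.10), whose motifs are described above, were not called.

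Among 14 tested mitochondrially encoded RNAs, mt-Atp8 fell (log2 fold change -1.04, adjusted p = 0.0101, limma), 1 of 14 (7.14%) beside 1.68% of all tested genes. The median was -0.26. After scaling 3 were called lower (mt-Atp8, mt-Atp6 and mt-Nd6), beside 3.25% of all tested genes, and the median was -0.70. The ribosomal RNAs with which the members assemble had higher log2 fold changes than the other tested RNAs of the mitochondrial genome. The small subunit RNA mt-Rnr1 measured 1531, 1744 and 1759 FPKM across WT libraries and 3733, 2793 and 1828 FPKM across Cfp1-cKO libraries. The libraries of Cfp1-cKO hearts were widely spread but all higher (log2 fold change 0.67, adjusted p = 0.0801, limma). The large subunit RNA mt-Rnr2 showed a log2 fold change of 0.46 (adjusted p = 0.0791, limma). After scaling the values were 0.23 and 0.02. The 15 listed RNAs of the mitochondrial genome summed to a mean of 294013 FPKM in WT, so mt-Rnr1 was a small part of them. Whether the capture of ribosomal RNA differed between libraries was not tested.

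Subunits of the respiratory chain, which work beside the products of the mitochondrial ribosome, had lower medians than the members on either scale. Of 35 tested nuclear-encoded complex I subunits 5 fell (14.3%), beside 1.68% of all tested genes, with a median log2 fold change of -0.28. The 4 with the largest falls were Ndufs7 (-0.74), Ndufs1 (-0.70), Ndufb11 (-0.67) and Ndufa8 (-0.62). Of 16 ATP synthase subunits 9 fell (56.25%), with a median of -0.64, led by Atp5j (-1.45), Atp5g1 (-1.07), Atp5b (-0.93) and Atp5e (-0.93). After scaling 9 complex I and 12 ATP synthase subunits were called lower, beside 3.25% of all tested genes. The ratio of the summed FPKM of members to that of complex I subunits was 0.228, 0.200 and 0.245 across WT libraries and 0.282, 0.315 and 0.304 across Cfp1-cKO libraries, without overlap and unaffected by scaling between libraries. The summed level of complex I subunits was 6469, 6646 and 5370 FPKM in WT and 5493, 4835 and 4535 FPKM in Cfp1-cKO hearts. Cytosolic ribosomal proteins had a median of -0.03 over 77 tested genes, and of -0.47 after scaling, where 77 of 77 were below 0. Of them Rpl36 fell (log2 fold change -0.53, adjusted p = 0.0403, limma), 1 of 77 (1.30%) beside 1.68% of all tested genes. The ratio of members to cytosolic ribosomal proteins was 0.138, 0.101 and 0.159 across WT libraries and 0.145, 0.135 and 0.163 across Cfp1-cKO libraries, with overlap.

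**Figure D5:**
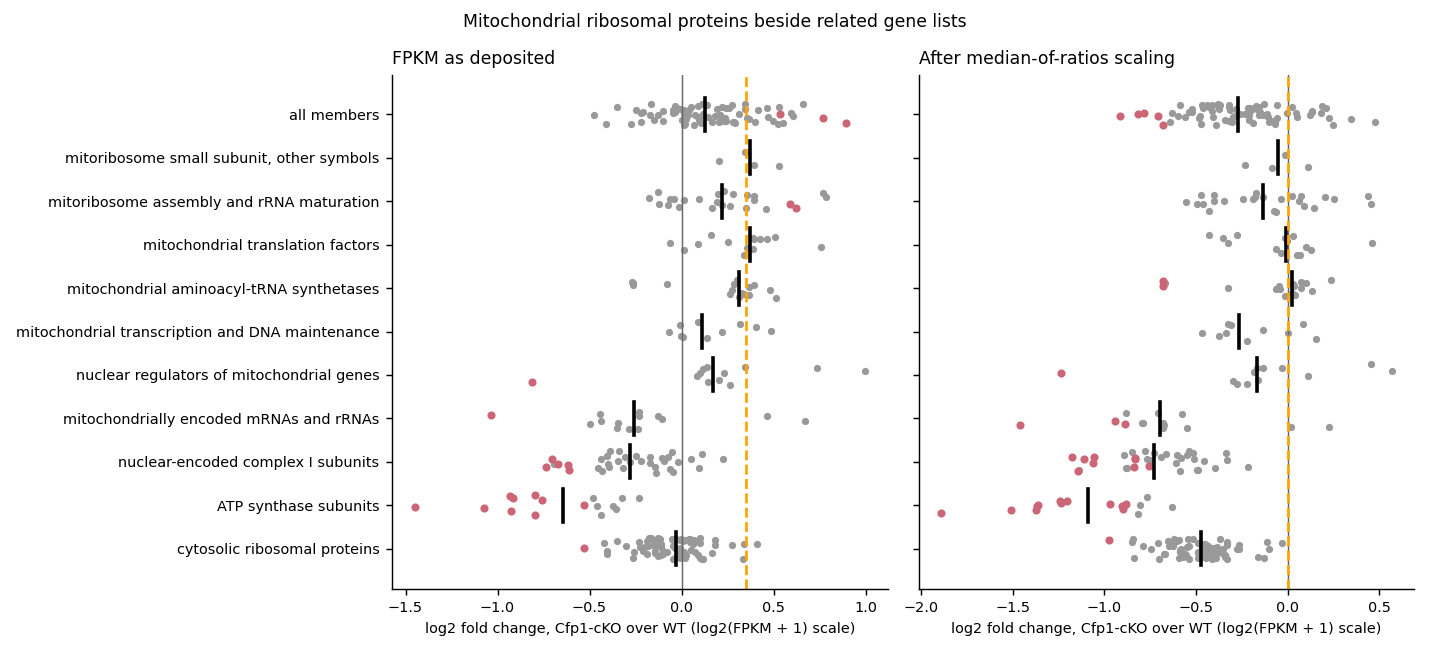
log2 fold change of Cfp1-cKO over WT (x axis) for the members and related gene lists (y axis), on deposited FPKM and after median-of-ratios scaling, with called genes in red, list medians as black bars and the median of all tested genes dashed. Members (median 0.13, or -0.27 after scaling) lie above complex I subunits (-0.28, or -0.73) and ATP synthase subunits (-0.64, or -1.09).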

How the data were processed

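RNA of 3 WT and 3 Cfp1-cKO heart samples was sequenced in bulk. The authors deposited FPKM per gene, and the submitters' processing notes name GRCm38, CASAVA, HISAT2 2.1.0, HTSeq 0.6.0, Bowtie2 2.2.3, TopHat2 and DESeq2 without their order. The reference address printed in the paper is that of a chicken genome, and the extraction text in the labels has steps on retinas that could not be related to heart samples. Both deposited tables held the same FPKM for all 26881 genes.

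Members were found by symbol. The members and gene lists were chosen with earlier results of these data known. Genotypes were tested with limma (version 3.58.1, R 4.3.3) on log2(FPKM + 1), letting the prior variance follow the mean level. The 11017 genes whose mean reached 1 FPKM entered, and p-values were adjusted over all of them (Benjamini-Hochberg). A call needed an adjusted p below 0.05 and a log2 fold change of more than 0.5 in size, on a scale that understates the changes of low genes. The script was tested on simulated data. The FPKM of 68 members were whole multiples of 1 fragment at the GENCODE M21 exon length, within a tolerance of 0.02, and those of the other 11 at another length. For a symbol with several promoters the first listed was used.

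Named were the members called in either fit, the 5 of highest and 3 of lowest mean, members not tested, the 2 nearest to a call, the 3 with the smallest differences, paralogs, pseudogenes, and up to 4 called genes of each list. Alternatives covered the pseudocount, the filter, the scaling, the variance model, library weights, the replicate block, the fold threshold, voom on recovered fragments and each library left out. Tables and plots were made in Python with matplotlib.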

Additional observations from a re-analysis of the deposited data

How the results depend on the processing

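The 3 members called higher on deposited FPKM became 0 after median-of-ratios scaling, 0 after upper-quartile scaling, 0 when mitochondrially encoded and haemoglobin genes were left out of the total and 1 with no filter on low values. Higher calls over all tested genes went from 2325 to 412, 472, 1278 and 1518 in these fits, the last over 26881 genes. With pseudocounts of 0.1 and 0.5, and with no fold threshold, the count was 4, and with the stricter filter, no variance trend, library weights or voom on recovered fragments it was 3. In the same order, higher calls over all tested genes were 2272, 2345, 2402, 1027 (of 5383 genes), 2379, 4027 and 1919. The 0 called lower became 5 after median-of-ratios scaling, 4 after upper-quartile scaling and 1 (Mrpl42) with library weights. Lower calls over all tested genes went from 185 to 358, 296 and 372 in these fits. The median log2 fold change of 0.13 became -0.27 after median-of-ratios and -0.19 after upper-quartile scaling. It became 0.02 without mitochondrially encoded and haemoglobin genes in the total. No called member changed sign under any of these alternatives.

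With each library left out in turn, the members called higher numbered 0 to 6, those called lower 0 to 0, and the median log2 fold change lay between 0.09 and 0.21. The large minus small subunit median, -0.03 with all libraries, lay between -0.00101 and 0.0666. After median-of-ratios scaling the members called lower numbered 0 to 5, the median lay between -0.35 and -0.16, and the large minus small subunit median lay between 0.00759 and 0.0703, against -0.02 with all libraries. Counts over all tested genes also changed with the library left out, from 538 to 2588 called higher and from 50 to 201 called lower on deposited FPKM, against 2325 and 185 with all 6. After median-of-ratios scaling, lower calls over all tested genes ranged from 60 to 398, against 358 with all 6.

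Over all tested genes, 92.6% of calls were higher on deposited FPKM, 53.5% after median-of-ratios, 61.5% after upper-quartile scaling. Deviations of same-numbered libraries had correlations of 0.108, 0.0361 and 0.104, and 6 of 6 libraries correlated best with the library of their own number. The replicate numbers are not stated to pair the samples, so the main fits had no block, and a pairing remains possible. With the replicate block 2 members were called higher (Mrps18a and Mrpl49) and 0 lower, and after scaling 2 were called lower (Mrpl42 and Mrpl2) and 0 higher. Mrpl54 was not called with the block (adjusted p = 0.0628, limma), nor were Mrpl11, Mrpl51 and Mrpl18 after scaling. Over all tested genes the block gave 1597 higher and 152 lower calls, and after scaling 228 higher and 201 lower. With 3 samples a group, the 95% interval of a member's log2 fold change had a median half-width of 0.36, which limits the precision of a single member's value.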
